A study of Mus musculus with 4 samples.

Results

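The 10 genes described here belong to the bone morphogenetic protein (BMP) receptor pathway whose loss of function is linked to pulmonary arterial hypertension in people: the receptors Bmpr2, Acvrl1, Eng and Bmpr1a, the signal transducers Smad1, Smad6 and Smad9, the target genes Id1 and Id3, and the caveolar coat gene Cav1. They were chosen by gene symbol from the 32285 genes of the count tables, and all 10 were found, each with 1 entry. Their unique molecular identifiers (UMIs, each standing for 1 captured transcript) were followed by cell lineage in 4 single-cell RNA-sequencing libraries. The libraries came from lung and synovium of female C57BL/6 mice aged 4 months, either TNF-Tg animals (TNF+), which overexpress the human TNF gene from 1 copy, or littermates without it (TNF-). The TNF+ line develops arthritis and pulmonary vascular disease, and which cells express the transgene was not measured here, since it is not a counted gene. Tissue from 3 to 5 mice per genotype for lung and 5 to 10 for synovium was pooled before capture, and live cells were sorted. Each genotype and tissue therefore had 1 library and no replicate, so no difference was tested. Intervals given below are 95% intervals for counting error alone, and they do not cover the spread between mice.

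BMP ligands bind a complex of a type II receptor such as BMPR2 and a type I receptor such as ALK1 (Acvrl1) or ALK3 (Bmpr1a), and endoglin (Eng) presents ligand to ALK1 on endothelial cells. The type I receptor then phosphorylates SMAD1, SMAD5 or SMAD9, which enter the nucleus with SMAD4 and switch on genes such as Id1 and Id3, while SMAD6 inhibits the pathway. Heterozygous loss of BMPR2 is the most frequent inherited cause of pulmonary arterial hypertension, and variants in ACVRL1, ENG, SMAD9 and CAV1 are rarer ones. CAV1 forms the caveolae of the cell membrane, which are abundant in lung capillaries.

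The 10 genes lie on 9 chromosomes of the mouse genome build GRCm38. Bmpr2 lies at chr1:59763400-59879014, Acvrl1 at chr15:101128522-101145336, Eng at chr2:32646595-32682669 and Id1 on the same chromosome at chr2:152736251-152737410, all on the plus strand. Id3 (chr4:136143497-136145755), Smad9 (chr3:54755582-54801257) and Cav1 (chr6:17306335-17341452) are also on the plus strand. Bmpr1a (chr14:34410734-34503341), Smad1 (chr8:79338395-79399518) and Smad6 (chr9:63953076-64022059) are on the minus strand. None overlaps another counted gene on its own strand, while Acvrl1, Eng, Bmpr1a and Cav1 overlap Gm16031, Fpgs, Gm17110 and Gm15581 on the other strand. The 250 bases before the start are shown for 3 of the genes that were lower in TNF+ lung endothelium. They are the pathway inhibitor Smad6 (chr9:64022060-64022309, minus strand), Cav1 (chr6:17306085-17306334, plus strand) and Eng (chr2:32646345-32646594, plus strand). Eng did not reach 2-fold. Bmpr2 and Smad9 were at least 2-fold lower and also had a listed promoter, which is not shown, so these 3 are not the full set. The sequences are from RefSeq on GRCm38.p6, and capitals mark the SMAD1/5 motif GGAGCC or its reverse complement GGCTCC.
Smad6: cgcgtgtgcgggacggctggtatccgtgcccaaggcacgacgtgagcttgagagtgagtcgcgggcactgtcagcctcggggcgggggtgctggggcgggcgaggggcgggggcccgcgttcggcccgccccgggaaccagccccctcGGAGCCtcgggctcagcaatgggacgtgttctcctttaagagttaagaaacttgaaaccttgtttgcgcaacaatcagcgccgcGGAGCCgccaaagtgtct
Cav1: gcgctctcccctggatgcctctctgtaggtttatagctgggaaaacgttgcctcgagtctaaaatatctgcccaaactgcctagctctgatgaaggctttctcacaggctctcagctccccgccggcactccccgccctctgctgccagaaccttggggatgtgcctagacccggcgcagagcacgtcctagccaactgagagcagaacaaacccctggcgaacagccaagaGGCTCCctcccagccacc
Eng: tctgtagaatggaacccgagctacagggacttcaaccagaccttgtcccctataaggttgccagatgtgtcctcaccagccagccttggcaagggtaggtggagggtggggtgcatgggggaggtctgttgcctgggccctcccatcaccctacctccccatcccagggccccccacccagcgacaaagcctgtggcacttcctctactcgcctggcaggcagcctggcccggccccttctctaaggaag
Smad6 held 2 copies of the motif, 18 and 102 bases before its start, Cav1 held 1 copy at 18 bases, and Eng held none in this window. A second listed Cav1 promoter (chr6:17307390-17307639, plus strand) held none. A promoter was listed for 8 of the 10 genes. GGAGCC was found on either strand in 4 of these 8 (Smad6, Smad9, Id3 and Cav1), against 26.0% of 32851 promoters of the same length. A second SMAD motif, GGCGCC, was found in 3 (Bmpr2, Bmpr1a and Smad9), against 9.59% of promoters. Neither motif contains the other, and a match describes the letters only.

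The libraries kept 6998 cells in TNF- lung, 9174 in TNF+ lung, 6200 in TNF- synovium and 3152 in TNF+ synovium, with medians of 7137, 8403, 12492 and 8728.5 UMIs per cell. In TNF+ synovium 17.6% of barcodes were above the limit of 20% mitochondrial UMIs, against 1.41% to 3.78% in the other libraries. Pairs of libraries shared 3 to 16 kept barcodes, at most 0.258% of a library. Endothelium was 32.6% of TNF- lung cells (2282 cells) and 1.38% of TNF+ lung cells (127 cells), and macrophages and monocytes were 9.35% and 41.4%. Because 1 pool was captured per group, a change in these shares cannot be told apart from unequal release of cells in digestion and sorting. All 16 endothelial markers, Pecam1 and Cdh5 among them, were detected in the endothelium of every library. The same markers named these clusters, and all 16 were also detected in TNF- lung mural cells, so detection alone does not set endothelium apart. Lung mural cells, meaning pericytes and smooth muscle, numbered 209 in TNF- and 93 in TNF+, and 72 of the 93 had under 1000 UMIs. A further 1270 cells of TNF+ lung (13.8%) took no lineage name. Among the unnamed were groups of 144 and 101 TNF+ cells with medians of 604 and 731.5 UMIs, which held 9 and 8 endothelial markers, were led by Prnd and were left unnamed for their low depth. With finer clusters (Leiden resolution 2), 374 TNF+ lung cells took the endothelial name, and the counts of the 10 genes that were at least 2-fold lower or higher were again 5 and 2.

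In TNF- lung the pathway was largely an endothelial one. Endothelial cells held 96.3% of all Smad6 UMIs, 96.2% of Eng, 94.3% of Acvrl1, 90.04% of Bmpr2 and 89.8% of Cav1. The target genes were also mostly endothelial, with 84.5% of Id1 and 68.2% of Id3. Levels are given as CPM, a gene's UMIs scaled to a total of 1000000, for lineages with at least 50 cells. Bmpr2 was at 2136 CPM (2111 to 2160) in endothelium, 219 in mural cells and 209.9 in fibroblasts, and the last pair overlapped in their intervals. Bmpr2 in macrophages and monocytes was 168 CPM, the next level down, and B or plasma cells were lowest at 19.2. Cav1 was at 1254 CPM in endothelium, 262 in epithelium, 234 in mural cells and 125 in fibroblasts. Acvrl1 was at 1173 CPM in endothelium, 95.1 in fibroblasts and 85.0 in dendritic cells, and Eng was at 1227 in endothelium and 144 in mural cells. Smad6 was at 809 CPM in endothelium and 78.0 in mural cells, and at or below 34.1 in every other lineage with at least 50 cells.

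Bmpr1a was not an endothelial gene, and Smad1, Smad9, Id1 and Id3 had further sites. Bmpr1a, the type I receptor ALK3, was almost absent from TNF- lung endothelium at 2.64 CPM (37 UMIs in 2282 cells). Its highest levels were 244 CPM in mural cells, 171 in fibroblasts and 145 in epithelium, and neutrophils reached 48.6. Endothelium held 2.31% of the Bmpr1a UMIs. Smad1 was spread over the lineages, with 94.3 CPM in endothelium, 68.0 in mural cells and 59.7 in fibroblasts, and endothelium held 49.8% of its UMIs. Id3 had a second site in B or plasma cells, at 240.3 CPM and 14.97% of its UMIs, and T cells were at 88.1 CPM. Id1 had its second highest level in neutrophils at 96.5 CPM. Smad9, the transducer also called Smad8, was rare everywhere, with 190 UMIs in the whole library, and was highest in mural cells at 14.4 CPM.

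**Figure D1:**
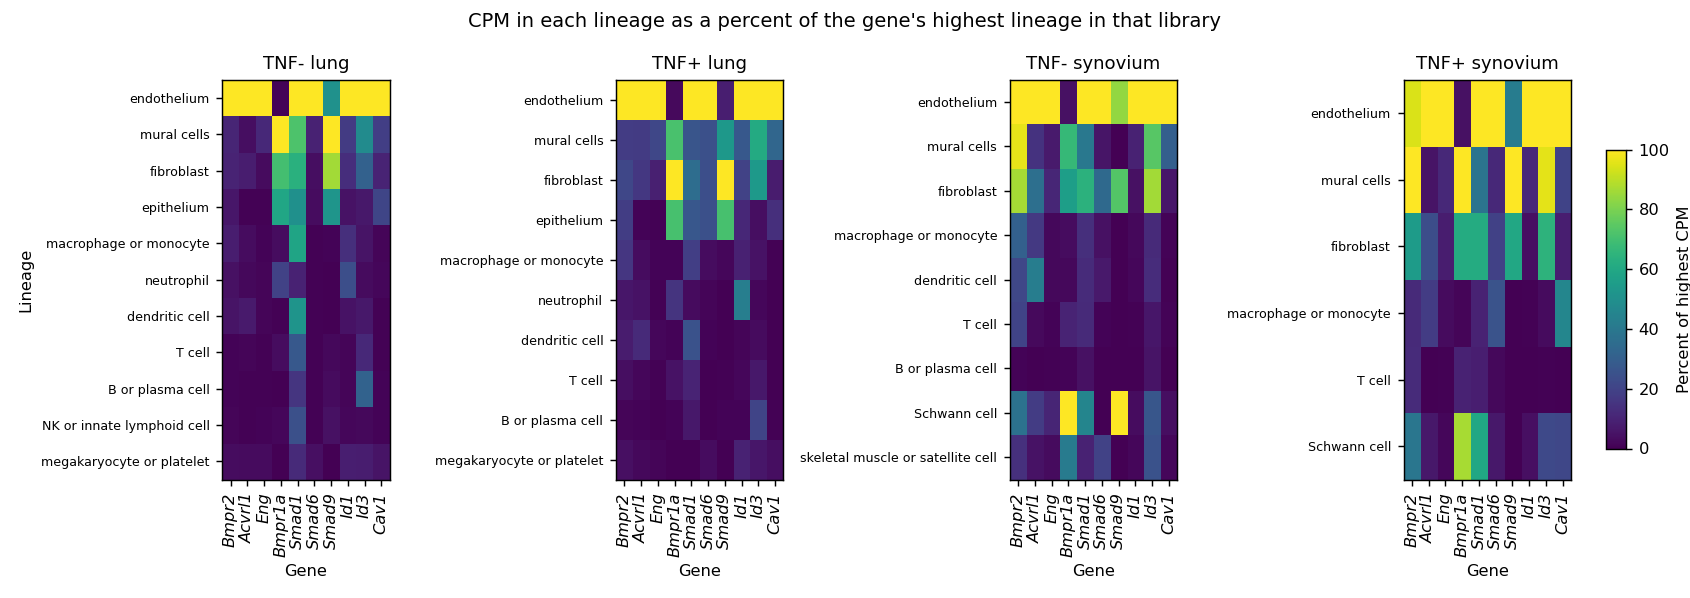
Level of each gene in each lineage (rows, lineages with at least 50 cells and a name) of the 4 libraries, as a percent of that gene's highest CPM in the library; columns are the 10 genes, and colours are comparable within a column of a panel. In TNF- lung the endothelial row is brightest for all but Bmpr1a and Smad9, and in TNF+ synovium Cav1 is bright in macrophages or monocytes.

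The share of cells with a UMI was compared after each cell was thinned to 1000 UMIs, since cells differed in depth. In TNF- lung endothelium 84.3% of 2045 cells had a Bmpr2 UMI, against 1.93% of 986 T cells, where the endothelial genes should be near background. The unthinned values were 91.9% and 15.1%, and the median depths were 5636 and 9303 UMIs. Eng was seen in 67.2% of the thinned endothelial cells, Acvrl1 in 66.8%, Cav1 in 64.8% and Smad6 in 45.5%, against 0.304% to 1.42% of T cells. Id3 was seen in 44.8% of endothelial cells and in 9.13% of T cells, and Id1 in 31.7% and 0.304%. Bmpr1a was seen in 0.0489% of the endothelial cells, below its 0.710% in T cells. T cells do not set a background for this gene, since its CPM was 8.17 in them and 0.82 in B or plasma cells.

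In the endothelium of TNF+ lung, 5 of the 10 genes were at least 2-fold lower than in TNF- endothelium, namely Bmpr2, Acvrl1, Smad6, Smad9 and Cav1, and 2 were at least 2-fold higher, Smad1 and Bmpr1a. Of the 13426 genes with at least 20 UMIs over both libraries, 8.87% were at least 2-fold lower and 9.10% at least 2-fold higher. The median log2 ratio of the 10 genes was -1.05, and that of all genes was 0.05. The 2 groups of cells came mostly from different clusters. Of the TNF- cells, 1421 were in a capillary cluster with 3 TNF+ cells. Of the 127 TNF+ cells, 93 were in a cluster with 4 TNF- cells. The clustering did not align the libraries, and some other lineages split in the same way. Large B or plasma cell clusters held 34 TNF- and 1371 TNF+ cells, and 1236 and 54. Neutrophil clusters held 295 and 0, and 7 and 176, while the megakaryocyte or platelet cluster was mixed, with 208 and 118.

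Among the receptors, Bmpr2 was at 2136 CPM in TNF- and 937 (885 to 991) in TNF+ lung endothelium, a log2 ratio of -1.19 (-1.27 to -1.11). Acvrl1 went from 1173 to 390.2 CPM, with a log2 ratio of -1.59 (-1.72 to -1.46). The co-receptor Eng went from 1227 to 656 CPM, with a log2 ratio of -0.90 that did not reach 2-fold. All 3 receptors of the endothelial BMP complex were thus lower per UMI, and Acvrl1 the most. Relative to the endothelial marker UMIs, Eng was at only -0.18. Bmpr1a was at 2.64 CPM (37 UMIs) and 5.38 CPM (7 UMIs), and the interval of its log2 ratio of 1.03 ran from -0.38 to 2.21, so its direction could not be told at this depth.

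Among the transducers, Smad6 and Smad1 went opposite ways. Smad6 was at 809 CPM in TNF- and 239 (213 to 267) in TNF+ lung endothelium, a log2 ratio of -1.76 (-1.93 to -1.60). Smad1 was at 94.3 CPM in TNF- and 203 (179 to 229) in TNF+, a log2 ratio of 1.10 (0.91 to 1.30). Smad9 had 102 UMIs in TNF- and 1 in TNF+, and the interval of its ratio was -8.56 to -0.73 on the log2 scale.

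By CPM, the target genes Id1 and Id3 were less far apart than the receptors Bmpr2, Acvrl1 and Eng. Of 6 other target genes counted, 4 were at least 2-fold lower, and their median log2 ratio was -1.26. Id1 was at 403 CPM in TNF- and 245 in TNF+, a log2 ratio of -0.72 (-0.89 to -0.56), and at -1.29 after thinning to 1000 UMIs. Id3 was at 761 and 767 CPM, a log2 ratio of 0.01 (-0.08 to 0.11). Cav1 was at 1254 and 439 CPM, a log2 ratio of -1.52 (-1.64 to -1.39).

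The scale changed these ratios, because the TNF+ endothelial cells held more UMIs, with a median of 11048 against 5636. The 16 endothelial markers together were 20122 CPM in TNF- and 12169 CPM in TNF+, while their count per cell was 124 and 125. Counted per cell, Bmpr2 was 13.1 and 9.61 UMIs, Smad6 was 4.98 and 2.45, and Acvrl1 was 7.21 and 4.00. Id1 was 2.48 and 2.51 UMIs per cell, Id3 was 4.68 and 7.87, and Smad1 was 0.580 and 2.08. Relative to the endothelial marker UMIs, the log2 ratio of Smad6 was -1.04, of Acvrl1 -0.86, of Cav1 -0.79, of Bmpr2 -0.46 and of Eng -0.18. On that scale Id1 was at 0.01, Id3 at 0.74 and Smad1 at 1.83, and 2 genes were at least 2-fold lower (Smad6 and Smad9) and 2 higher. The same scaling moved the median of all genes to 0.77, with 2.99% of genes lower and 32.7% higher. Thus Smad6 was lower and Smad1 was higher on each of these scales, and the distance of Id1 and Id3 from zero depended on the scale. Markers of B or plasma cells, all 13 detected in both libraries, were 417 CPM in TNF- and 1529 CPM in TNF+ lung endothelium, and macrophage markers were 1409 and 1342 CPM. Per cell the macrophage markers were 8.66 and 13.8 UMIs, and of 17 with enough UMIs 10 were at least 2-fold higher in TNF+ and 2 lower by CPM. Their part in the ratios was not tested.

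After thinning to 1000 UMIs, Bmpr2 was seen in 84.3% of TNF- and 52.4% (43.3% to 61.4%) of TNF+ lung endothelial cells. Acvrl1 was seen in 66.8% and 27.8%, Cav1 in 64.8% and 29.4%, Eng in 67.2% and 42.9%, Smad6 in 45.5% and 18.3%, and Id1 in 31.7% and 15.1%. Without thinning, the Id1 shares were 67.7% and 68.5%. Smad1 was seen in 7.92% and 14.3% of thinned cells, and Id3 in 44.8% and 42.1%. Thinning left out 237 of the TNF- cells and 1 of the TNF+ cells. Smad9 was seen in 0 of 126 TNF+ cells, where a count of 0 leaves room for 2.38%, and in 0.587% of TNF- cells. In T cells Bmpr2 was seen in 1.93% of TNF- and 3.03% of TNF+ cells, at medians of 9303 and 9249 UMIs.

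**Figure D2:**
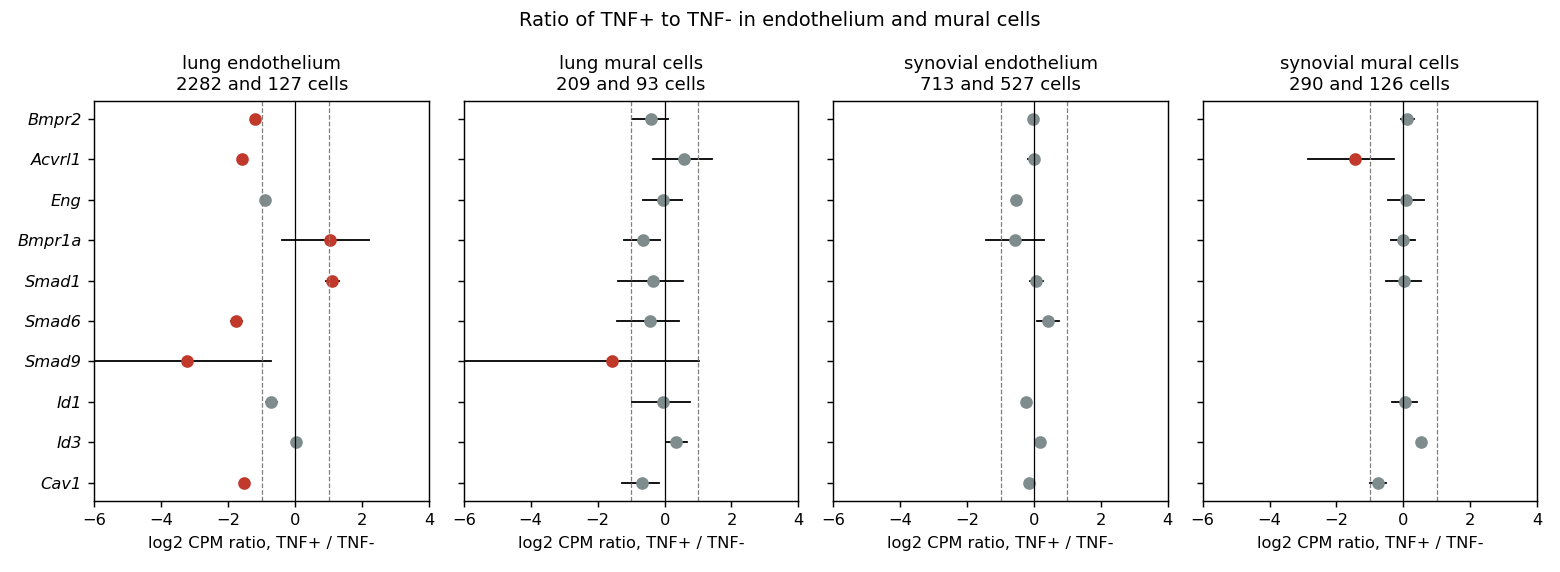
log2 ratio of TNF+ over TNF- CPM for the 10 genes (rows) in the 4 vascular classes, with 95% counting intervals as lines (cut at the axis ends for Smad9), dashed lines at 2-fold, red points for ratios of at least 2-fold, and no point where fewer than 20 UMIs were counted. Points spread from -3.24 to 1.10 in lung endothelium, while in synovial endothelium all lie between -0.56 and 0.42.

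The lung endothelium held several vessel types, which were named after clustering without the 10 genes or the other pathway genes. Within TNF- lung, general capillary cells (1683) had the highest Bmpr2 at 2369 CPM and the highest Cav1 at 1409 CPM. Aerocytes (425), the thin capillary cells that face the air space, had the highest Acvrl1 at 1675 CPM, with Bmpr2 at 1819 and Cav1 at 851. The 20 arterial cells had the highest Smad6 at 1548 CPM and Id3 at 1576 CPM, with Bmpr2 at 1331. The 73 venous cells had Smad6 at 391 CPM and Acvrl1 at 866 CPM. Lymphatic cells (39) differed from the blood vessel cells in most of the genes. In them Bmpr2 was at 196 CPM, Acvrl1 at 79.9, Id3 at 76.5, Id1 at 26.6 and Smad6 at 9.98, while Smad1 was highest of all types at 782 CPM (685 to 889). A further 40 TNF- cells were led by natural killer cell genes such as Prf1 and Klrc2 and were left unnamed.

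In TNF+ lung, 26 endothelial cells were aerocytes, and 91 formed a group of almost only TNF+ cells that had too few capillary markers for a name. In this unnamed group the general capillary markers Kit and Aplnr were at 584 and 147 CPM, against 557 and 148 in TNF- general capillary cells, but Gpihbp1 was at 247 against 1078 and Plvap at 180 against 1284. Such a group may be a feature of the library rather than a cell type. Against TNF- general capillary cells, it had log2 ratios of -1.99 for Smad6, -1.70 for Acvrl1, -1.43 for Cav1 and -1.30 for Bmpr2. Smad1 was at 1.16, Eng at -0.95, Id1 at -0.73 and Id3 at 0.00. The aerocytes, which took the same name in both libraries, had ratios of the same sign for all of these but Id3. The shared name does not make them matched cells. Ednrb was at 1567 CPM in TNF- and 334 in TNF+ aerocytes, Car4 at 2357 and 1714, and Cdh5 at 2377 and 1283. Clec1a (835 and 942) and Sema3c (371 and 1088) went the other way. Median depths were 3346 and 11776 UMIs, and 171 TNF- aerocytes were in a shallow cluster with 1 TNF+ cell. The 26 TNF+ aerocytes were also fewer than the minimum set for a ratio. Between TNF- and TNF+ aerocytes the log2 ratio was -2.18 (-2.60 to -1.79) for Cav1, -1.45 for Acvrl1, -1.32 for Smad6, -1.02 for Eng, -0.87 for Id1 and -0.79 for Bmpr2. Smad1 in aerocytes was at 1.30 (0.71 to 1.86) and Id3 at 0.03. Cav1 thus went from 851 to 188 CPM in aerocytes, and Bmpr2 from 1819 to 1053.

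**Figure D3:**
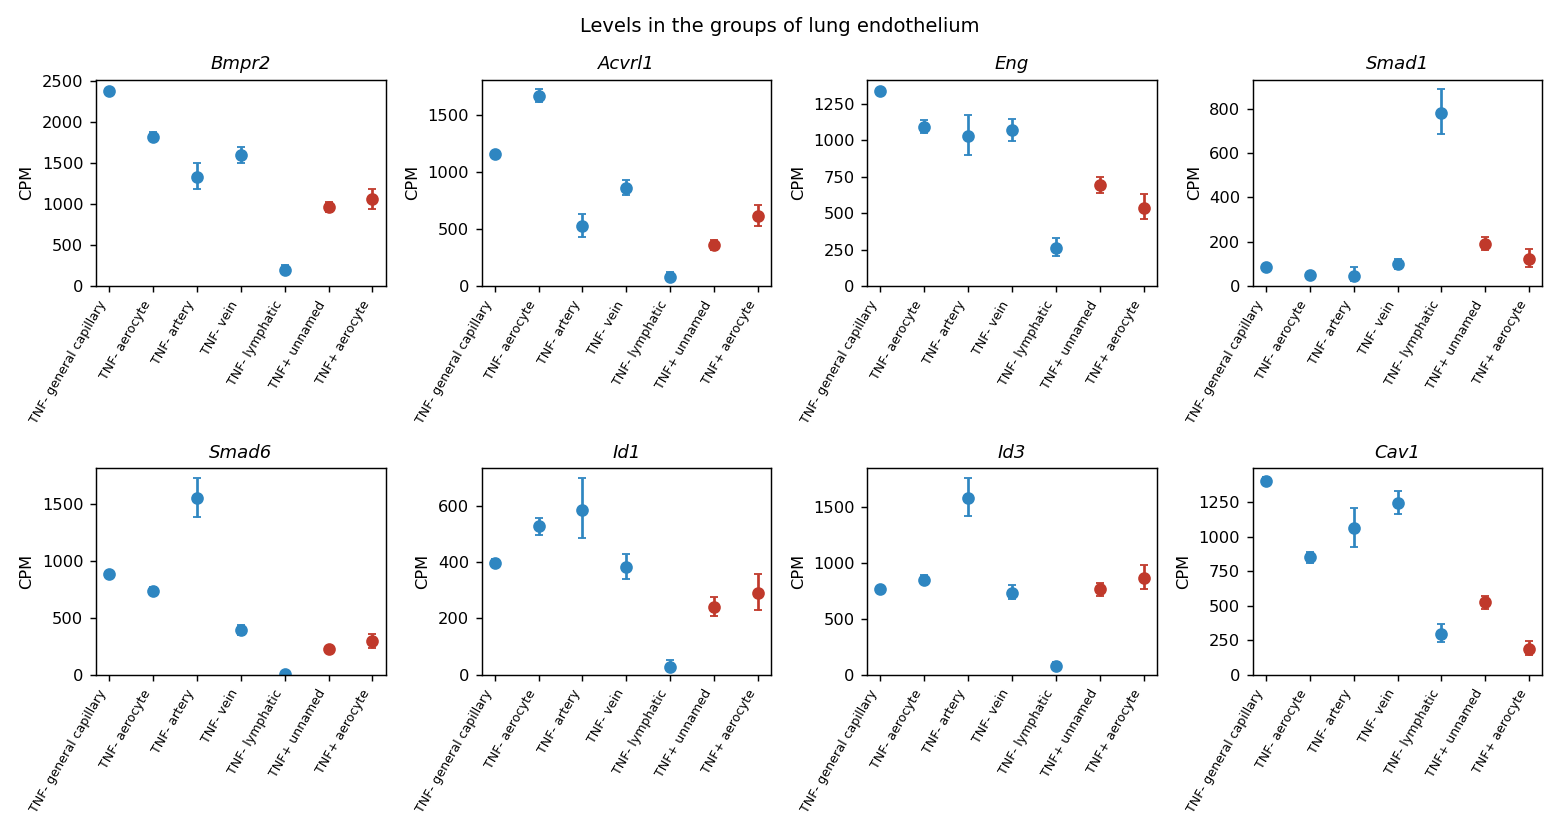
CPM of 8 of the genes in the vessel types of lung endothelium, with 95% Poisson intervals, TNF- in blue and TNF+ in red; Bmpr1a and Smad9 are left out for low counts. Smad1 is highest in lymphatic cells, and both TNF+ groups lie below TNF- general capillary cells and aerocytes for Bmpr2, Acvrl1, Eng, Smad6, Id1 and Cav1.

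In lung mural cells, where Bmpr1a was at its highest in TNF- lung, 1 of the 10 genes was at least 2-fold lower in TNF+ and none higher, where 14.4% of 9865 genes were lower and 7.77% higher. The median log2 ratio was -0.38 for the 10 genes and -0.09 for all. The lower gene was Smad9, with 26 UMIs in TNF- and 1 in TNF+. Bmpr1a was at 244 CPM in TNF- and 155 (106 to 219) in TNF+, a log2 ratio of -0.66 (-1.22 to -0.14). Cav1 was at 234 and 145 CPM, a log2 ratio of -0.69 (-1.28 to -0.15), and Bmpr2 was at 219 and 165, a log2 ratio of -0.41 whose interval crossed 0. Id3 went from 368 to 470.2 CPM, with a log2 ratio of 0.35 (0.03 to 0.66). The signs of these ratios depended on the processing. With the stricter filter on cells Id3 was at -0.77, and with free RNA subtracted Bmpr1a was at 0.40 and Cav1 at 0.43. Under the stricter filter a different set of cells took the mural name, 186 in TNF- and 335 in TNF+. A cluster named pericyte there held 39 TNF- and 325 TNF+ cells, at a median of 1119 UMIs. Eng (-0.03), Id1 (-0.05), Smad1 (-0.35), Smad6 (-0.42) and Acvrl1 (0.58) had intervals that held 0, with 11 to 29 UMIs each in TNF+. The 2 libraries filled different mural clusters. A cluster named pericyte had 102 TNF- and 11 TNF+ cells, one named smooth muscle had 92 and 3, and a shallow one named pericyte had 15 and 79. In TNF+ mural cells macrophage markers were 4134 CPM against 311 in TNF-, B or plasma cell markers 5928 against 857, and epithelial markers 3480 against 998. Their part in the ratios was not tested. Without the shallow cluster 14 TNF+ cells were left, too few for a ratio.

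Within TNF- mural cells, the clusters named pericyte and smooth muscle differed in several genes. The first met 15 of the 16 pericyte markers but was led by contractile smooth muscle genes such as Cnn1, Myh11 and Acta2. The second was led by Hhip and Lgr5, so the names do not cleanly part pericytes from smooth muscle. Cav1 was at 371 CPM in the first and 107 in the second, and Id3 at 443 and 292. Bmpr1a was at 208 CPM in the first and 281 in the second, and Bmpr2 at 181 and 256. The genes of the endothelial complex were low in both, with Acvrl1 at 56.1 and 30.4 CPM.

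Synovial endothelium gave the comparison in a second tissue, and none of its 9 genes with enough UMIs was 2-fold apart in either direction, where 10.4% of 11921 genes were lower and 6.78% higher. Bmpr2 was at 365 CPM in TNF- (713 cells) and 359 in TNF+ (527 cells), a log2 ratio of -0.02 (-0.13 to 0.08). Acvrl1 was at 149 and 148 CPM, a log2 ratio of -0.01 (-0.19 to 0.16). Both intervals lie within 0.19 of 0, so a 2-fold difference of these pools was outside the counting error. Eng was the lowest of the well counted genes, at 689 and 473 CPM, a log2 ratio of -0.54 (-0.63 to -0.46). Smad6 was at 37.0 CPM (128 UMIs) and 49.4 CPM (206 UMIs), a log2 ratio of 0.42 (0.09 to 0.75). After thinning to 1000 UMIs Smad6 was seen in 4.22% of TNF- and 3.93% of TNF+ cells, so its direction depended on the measure. Id1 was at 1028 and 879.9 CPM, Id3 at 1076 and 1207, and Cav1 at 1240 and 1116, log2 ratios of -0.22, 0.17 and -0.15. Smad1 was at 127 and 134 CPM. Bmpr1a had 27 and 22 UMIs, and Smad9 had 7 and 2. Endothelial markers were 8257 and 7928 CPM, and fibroblast markers were 1373 and 282 CPM. Pericyte markers were 150.3 and 552 CPM, with 7 of 13 at least 2-fold higher in TNF+ and 0 lower, and macrophage markers were 293 and 489 CPM, with 4 of 10 higher and 0 lower. The part of these markers in the ratios was not tested.

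Synovial and lung endothelium also differed from each other in level, within the TNF- libraries and with the tissue and the digestion enzymes differing together. Bmpr2 was at 2136 CPM in lung and 365 in synovium, Acvrl1 at 1173 and 149, and Smad6 at 809 and 37.0. Cav1 was at 1254 and 1240, while Id1 was at 403 in lung and 1028 in synovium. These values are given side by side, since the tissue cannot be told apart from the preparation.

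In synovial mural cells (290 and 126 cells), 1 of 8 genes with enough UMIs was at least 2-fold lower in TNF+ and none higher, where 21.0% of 9451 genes were lower and 5.23% higher. That gene was Acvrl1, with 42 UMIs (21.7 CPM) in TNF- and 7 (7.999 CPM) in TNF+, a log2 ratio of -1.44 (-2.84 to -0.27). Id3 was at 798 CPM in TNF- and 1158 in TNF+, a log2 ratio of 0.54 (0.42 to 0.65). Cav1 was at 378 and 223 CPM, a log2 ratio of -0.76 (-0.997 to -0.531). Bmpr2 (351 and 381 CPM), Bmpr1a (118 in each), Id1 (98.7 and 102), Smad1 (51.2 and 51.4) and Eng (50.6 and 53.7) had intervals that held 0. The pericyte and smooth muscle clusters were filled unequally, with 226 TNF- and 32 TNF+ cells in the first and 64 and 94 in the second. Id3 in the second cluster was 1333 CPM in TNF- and 1120 CPM in TNF+, and in the first 504 and 1334. The higher Id3 was therefore seen in the first cluster and not in the second.

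Over all cells of lung, 9 of the 10 genes were at least 2-fold lower in TNF+ and none higher, where 25.5% of 19510 genes were lower and 5.79% higher. Cav1 had a log2 ratio of -5.07, Smad6 of -4.55, Eng of -4.23, Acvrl1 of -4.15 and Smad9 of -3.90. Id1 was at -2.70, Bmpr2 at -2.56, Id3 at -2.11, Bmpr1a at -1.83 and Smad1 at -0.64. In such a sum fewer cells of a type and less RNA per cell cannot be told apart. With the named endothelium left out, 6 genes were still at least 2-fold lower, where 23.8% of 19091 genes were lower and 4.82% higher: Cav1 had a log2 ratio of -3.59, Eng of -1.16, Id3 of -1.15 and Acvrl1 of -1.002. Bmpr2 turned to 0.14, Smad6 to -0.94 and Id1 to -0.74. The sum of the TNF+ lung was held by other cells: macrophages and monocytes had 67.7% of the Bmpr2 UMIs, 56.7% of Smad1, 56.4% of Id1 and 42.3% of Smad6. Named endothelium, at 1.38% of cells without the shallow groups led by Prnd, still had 62.3% of Cav1, 57.2% of Eng and 39.4% of Smad6. B or plasma cells had 33.0% of Id3.

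Bmpr2 in lung macrophages and monocytes was at 168 CPM in TNF- and 148 in TNF+, a log2 ratio of -0.19. Acvrl1 in these cells went from 40.5 to 12.7 CPM, Id1 from 55.0 to 22.5 and Cav1 from 14.9 to 2.78. The 2633 TNF+ cells of the large cluster had Bmpr2 at 168 CPM and Acvrl1 at 4.92, and the 442 TNF- cells of another cluster had 178 and 22.6. Cav1 was also lower in lymphocytes, which are not known for caveolae: it went from 11.4 to 1.77 CPM in B or plasma cells and from 7.32 to 1.48 in T cells. In epithelium Cav1 went from 262 to 59.0 CPM, and in fibroblasts from 125 to 33.3. Beside these values, endothelium, the main holder of Cav1, was 32.6% of TNF- and 1.38% of TNF+ lung cells, and the part of free RNA in them was not tested. Smad6 in epithelium went the other way, from 25.6 to 57.9 CPM, and so did Id3 in fibroblasts, from 237 to 415 CPM.

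**Figure D4:**
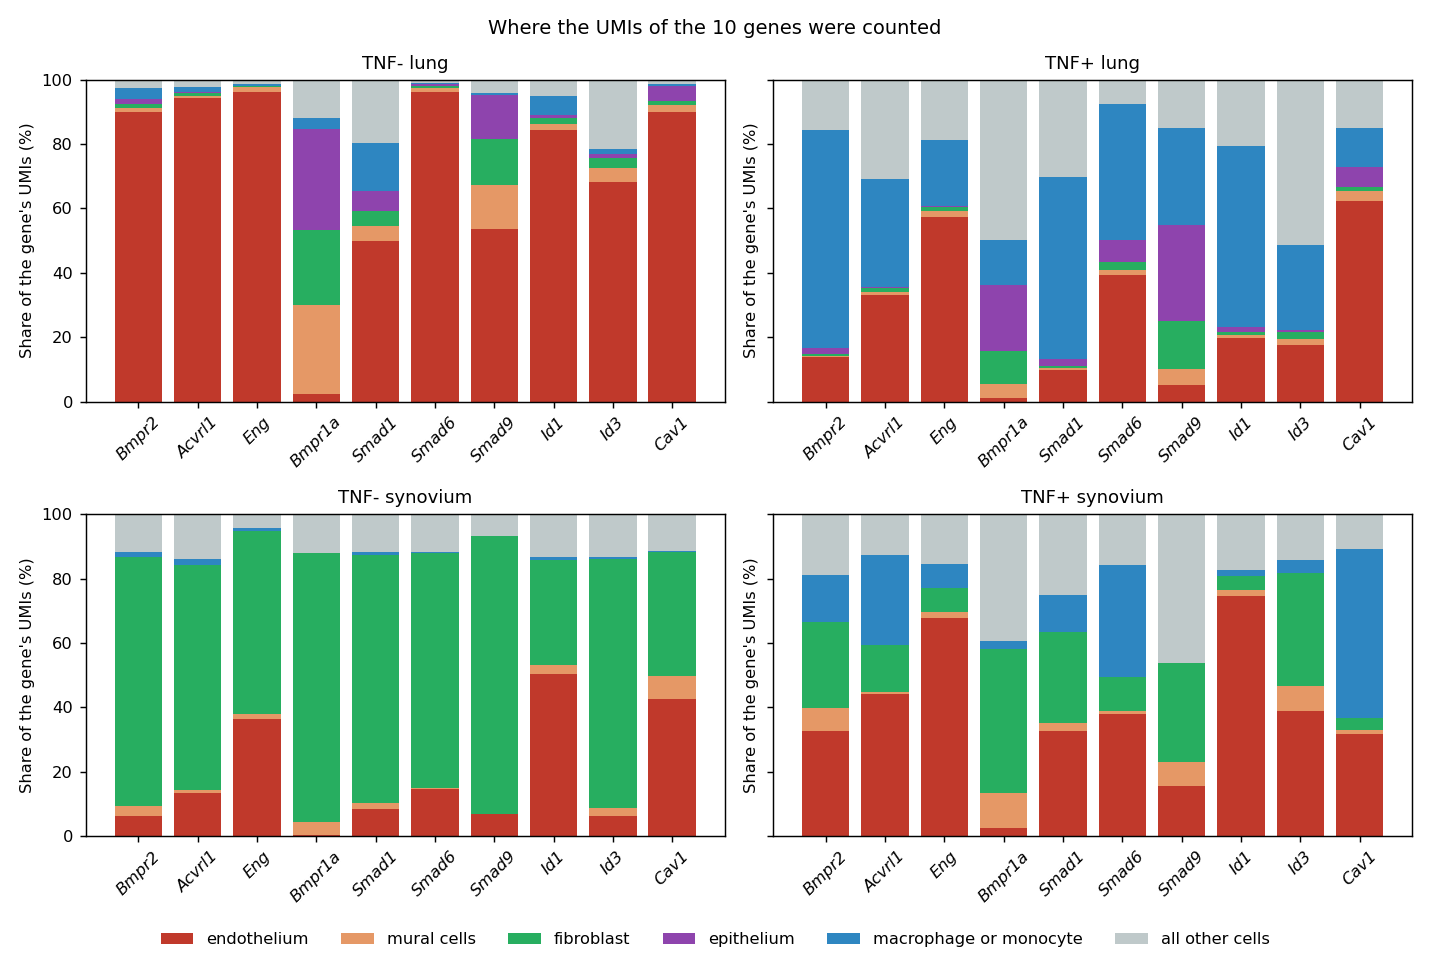
Share of each gene's UMIs (y axis, percent) that was counted in each lineage, for the 10 genes (x axis) in the 4 libraries; all other named and unnamed cells are grey. Endothelium (red) holds more than any other lineage for 9 of the 10 genes in TNF- lung, macrophages or monocytes (blue) hold 67.7% of Bmpr2 in TNF+ lung, and fibroblasts (green) hold most of 8 genes in TNF- synovium.

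In TNF- synovium, fibroblasts were 53.4% of cells and held 77.2% of the Bmpr2 UMIs, 83.5% of Bmpr1a, 77.3% of Id3 and 77.1% of Smad1. Endothelium there held 50.3% of Id1, 42.4% of Cav1 and 36.4% of Eng. In TNF+ synovium fibroblasts were 14.5% of cells, and endothelium held 74.6% of Id1, 67.9% of Eng and 44.2% of Acvrl1. Over all synovial cells, 3 genes were at least 2-fold lower in TNF+ (21.9% of 19255 genes), namely Smad9 at -1.78, Bmpr1a at -1.45 and Id3 at -1.01, and 1 was higher (11.8% of genes), Cav1 at 1.74. With macrophages and monocytes left out none was lower (14.2% of 18981 genes) and 2 were higher (13.5%), Id1 and Cav1, both at 1.49.

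The largest difference of any of the 10 genes in a lineage was that of Cav1 in synovial macrophages and monocytes. Cav1 was at 13.3 CPM (39 UMIs in 218 cells) in TNF- and 513 CPM (7706 UMIs in 1041 cells) in TNF+, a log2 ratio of 5.27 (4.82 to 5.77). After thinning, 0 of 218 TNF- cells had a Cav1 UMI, a count that leaves room for 1.38%, and 27.1% (24.4% to 29.96%) of 1018 TNF+ cells had one. In TNF+ synovial T cells the thinned share was 0 of 144. Without thinning 3.67% and 58.0% of macrophages and monocytes had one, and the TNF- median was 13250 UMIs. Smad6 was the other higher gene, at 1.70 CPM (5 UMIs) and 12.6 CPM (189 UMIs), a log2 ratio of 2.89 (1.64 to 4.53). In all, 2 of 9 genes were higher (8.68% of 11777 genes) and 4 were lower (20.1%). The lower genes were Bmpr2 (111 to 45.6 CPM), Bmpr1a (17 and 24 UMIs), Id1 (23.1 to 5.93 CPM) and Id3 (128 to 36.2 CPM).

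The Cav1 UMIs were not spread evenly over the synovial macrophages. The 509 TNF+ cells of a cluster led by Npy, Spp1 and Trem2 had Cav1 at 697 CPM. In the cluster that both libraries filled, Cav1 was at 31.3 CPM in 81 TNF- cells and 354 CPM in 348 TNF+ cells. This cluster was led by Ccl24 and H2-M2. At Leiden resolution 2, H2-M2 led a cluster of 4 TNF- and 323 TNF+ cells, and Ccl24 was a top gene of one with 77 and 26. Its TNF- and TNF+ cells may therefore be largely different kinds of macrophages, and Cav1 within each kind was not compared. The 179 TNF+ cells of another cluster had 4.03 CPM, and the 129 TNF- cells of a further one had 2.31 CPM. Cdh5, which marks endothelium, was between 0.92 and 1.61 CPM in the TNF+ clusters, and all endothelial markers together were 247 CPM in TNF- and 97.6 CPM in TNF+ macrophages. Cav2, the partner of Cav1 in caveolae, was also higher in TNF+, at 122 CPM against 11.9, a log2 ratio of 3.36. The coat genes Cavin1 (23.5 to 11.1 CPM), Cavin2 (6.46 to 0.999 CPM) and Ehd2 (7.48 to 3.00 CPM) were lower. In the same cells 7 of 10 dissociation and stress genes were at least 2-fold lower in TNF+, and their part was not tested.

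**Figure D5:**
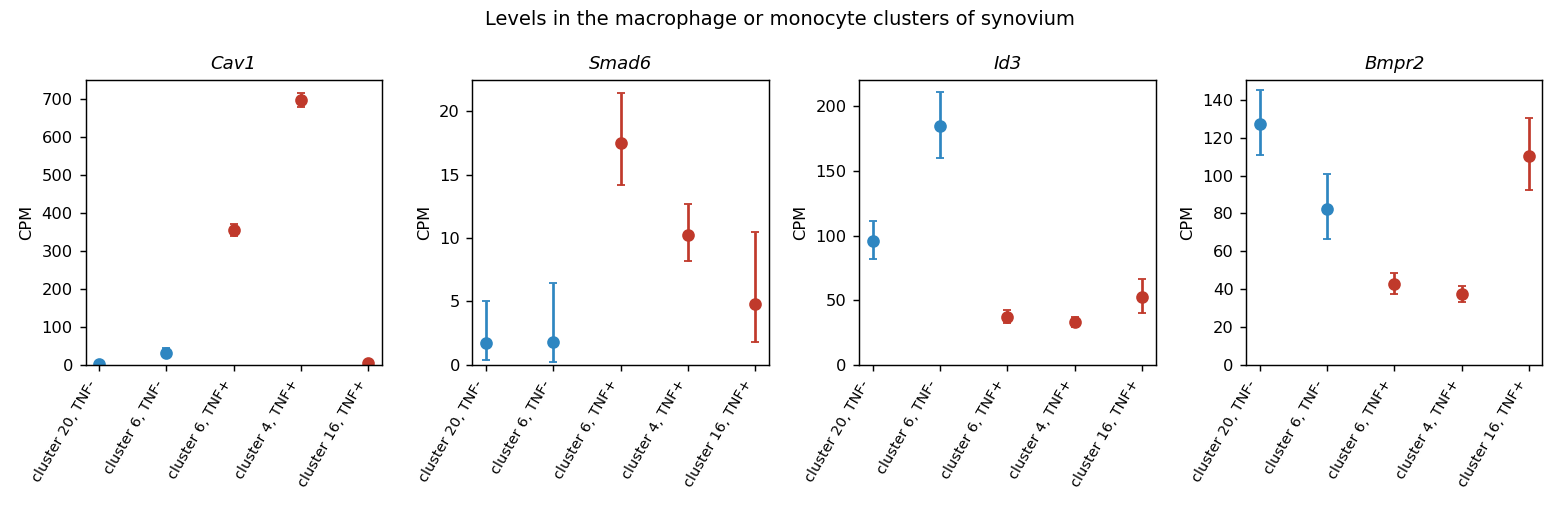
CPM of Cav1, Smad6, Id3 and Bmpr2 in the macrophage or monocyte clusters of synovium, TNF- in blue and TNF+ in red, with 95% Poisson intervals. Cav1 is at 697 CPM in the largest TNF+ cluster and 4.03 CPM in the smallest, and Id3 is lower in every TNF+ cluster than in either TNF- cluster.

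Around the 10 genes, 60 further genes of the pathway in 7 lists were followed. In lung endothelium 37 of them had enough UMIs, and 9 were at least 2-fold lower and 6 higher in TNF+, with a median log2 ratio of -0.20, beside 8.87% and 9.10% of all genes and their median of 0.05. Among 12 ligands 4 were counted. Bmp6, which was almost purely endothelial in TNF- lung (98.9% of its UMIs), was at 1205 and 896 CPM, a log2 ratio of -0.43. Bmp2 went from 18 to 41 UMIs, a log2 ratio of 4.62 (3.79 to 5.50), and Bmp4 had a ratio of -1.05. In TNF- lung the highest level of Bmp5 was in mural cells (724 CPM), those of Bmp4 and Bmp3 in fibroblasts (200.3 and 175 CPM), and that of Bmp2 in megakaryocytes or platelets (94.7 CPM). Bmp7 was highest in fibroblasts at 7.81 CPM and Bmp8a in B or plasma cells at 11.7 CPM. Gdf2 and Bmp10, the circulating ligands of ALK1, had 2 and 0 UMIs in TNF- lung, and Gdf5, Gdf6 and Gdf7 had 2, 6 and 1.

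The remaining pathway genes of lung endothelium differed in either direction. Of 6 other receptors, 5 were counted and none was called, with Acvr1 at 0.81 and Rgmb at -0.21. Bmpr1b had 46 UMIs in TNF- and none in TNF+. Its ratio of -0.51 came from the floor of 3 UMIs, so a 2-fold loss could not be called. Of 6 other transducers 1 was higher: Smad5, a partner of Smad1, had a log2 ratio of 1.02 (0.76 to 1.26). Smad7, like Smad6 an inhibitor, was at -0.98 and the ubiquitin ligase gene Smurf2 at -0.79. Of 6 target genes counted, 4 were lower and 1 higher. Tmem100, an endothelial target of ALK1, went from 2229 to 489 CPM, with a log2 ratio of -2.19, and Hey1 had -2.09 and Hey2 1.99 (46 and 17 UMIs). Of 3 antagonists counted, Crim1 was at -1.69, Fstl1 at 1.52 and Twsg1 at 0.95. Of 6 caveolar genes, Cavin2 (-1.75) and Cav2 (-1.61) were lower together with Cav1, and Cavin3 was higher (1.08). Of 7 other genes linked to pulmonary arterial hypertension, Aqp1 was lower (-1.29), Atp13a3 higher (1.66), and Sox17 was at 0.56. Of the 10 dissociation and stress genes, 3 were higher, Hspa1a (2.37), Hspa1b (1.53) and Junb (1.24).

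In lung mural cells 12 of 42 pathway genes were at least 2-fold lower and 1 was higher, beside 14.4% and 7.77% of all genes. Bmp5 went from 724 to 58.2 CPM, with a log2 ratio of -3.64 (-4.59 to -2.83). Bambi and Tmem100 had 2 UMIs each in TNF+, against 136 and 132 in TNF-, and Id4 had a ratio of -2.36. Cavin2 was at -2.50 and Acvr2a at -1.21, while Smad4 was at -0.75, Smurf1 at 0.62 and Chrdl1 at 1.30 (25 and 7 UMIs). The potassium channel gene Kcnk3 was at -1.06. In these cells 4 of 10 stress genes were lower, among them Egr1 at -1.97.

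In synovial endothelium 9 of 40 pathway genes were at least 2-fold lower and 2 higher, beside 10.4% and 6.78% of all genes. Bmp6 went from 418 to 108 CPM, with a log2 ratio of -1.95 (-2.11 to -1.80). Aqp1 went from 3023 to 1040 CPM (-1.54) and Kdr, the main VEGF receptor gene, from 772 to 290 CPM (-1.41), and Kcna5 was at -1.39. Bmper (63 and 5 UMIs), Fst (34 and 3) and Bmp5 (25 and 2) were also lower, and Bmp8a was higher with 11 and 48 UMIs. The inhibitor Smad7 was at 0.75 and the targets Hey1 and Id2 at 0.86 and 0.45. Cavin3 was at 0.90, Cavin2 at -0.57 and Cav2 at -0.28. Of the stress genes, Egr1 was lower at -1.16.

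The genes most like each of the 10 in level were found by Pearson correlation among 13354 genes. It ran over 36 groups, each 1 lineage in 1 of the 4 libraries, so most lineages enter more than once. The groups also share libraries and depth. The nearest genes were Maoa (0.87) for Bmpr2, Plpp1 (0.84) for Acvrl1, Pdgfd (0.90) for Eng and Dync2li1 (0.88) for Bmpr1a. For the transducers they were Dync1h1 (0.90) for Smad1, Slco2a1 (0.89) for Smad6 and Gm11266 (0.90) for Smad9. Kitl (0.86) was nearest to Id1, Akap12 (0.88) to Id3 and Lims2 (0.87) to Cav1. Gata6 was the second for Smad6 (0.84) and Efnb2 the second for Eng (0.88).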

How the data were processed

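The deposited files were 10x gene-by-barcode matrices of UMI counts, not normalized, which the authors made with Cell Ranger 7.0.1 on mm10 per the labels. The kit was a 3′ kit with UMIs, version 1.1 per the labels. The human transgene is not a counted gene here. The 10 genes and all lists were chosen with earlier results of these data known. Barcodes with 200 to 5000 genes and at most 20% mitochondrial UMIs were kept, which left 53800390, 84398714, 76203216 and 33047125 UMIs, TNF- before TNF+ and lung before synovium. The upper limit of genes removed 346 to 1909 barcodes per library. The libraries of a tissue were clustered together (scikit-learn 1.9.0, igraph 0.11.9, leidenalg 0.10.2), without the 10 genes or the pathway lists. Settings were 2000 variable genes, 30 components and Leiden resolution 0.8. No step aligned the libraries with each other. Clusters were named from 17 marker lists when at least 5 markers were 2-fold higher. No doublets were removed in the values given, and removal was an alternative, with doublet scores from scanpy 1.11.5.

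UMIs were summed over the cells of a lineage and library and divided by their total (CPM). Intervals were exact Poisson (levels), Clopper-Pearson (shares) and conditional binomial (ratios), at 95%. They cover counting error only. A gene was called 2-fold apart among genes with at least 20 UMIs over both libraries, in lineages of at least 50 cells per library. Against a count of 0, ratios used a floor of 3 UMIs. On simulated lung endothelium counts (13185 genes, 200 changed 4-fold), 100% of the changed genes were called in the right direction. Of the intervals, 96.5% held the true ratio. The counts were drawn as Poisson, as the intervals assume, and only genes with at least 20 expected TNF+ UMIs were changed. Calls of genes with fewer TNF+ UMIs, such as Smad9 and Bmpr1a, were therefore not checked. Differences in the mix or depth of cells were not simulated. Named genes were the 10 genes, and from each list the 3 with the largest absolute log2 ratio in lung endothelium, lung mural cells and synovial endothelium. They also included the top lineage of each ligand in TNF- lung and the nearest genes, of those reaching 20 CPM. Cav2, Cavin1, Cavin2 and Ehd2 in synovial macrophages, Prf1, Klrc2, Npy, Spp1, Trem2, Cdh5 and the capillary markers were named after their values were seen. So were the cluster genes Cnn1, Myh11, Acta2, Hhip, Lgr5, H2-M2 and Ccl24. With 1 library per group no test was run. Alternatives changed the cell filter, doublets, clustering, thinning, cell weights, scaling and free RNA. A gene that the naming rule picks is not reported here.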

Additional observations from a re-analysis of the deposited data

Results flagged for a closer look

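Smad6 in endothelium stood out because its log2 ratio of TNF+ over TNF- had opposite signs in the 2 tissues, -1.76 in lung and 0.42 in synovium. The difference between the tissues was not tested, since each genotype and tissue had 1 library. In synovium the thinned counts gave a ratio of -0.11, so the sign there rests on 128 and 206 UMIs and on the measure used.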

How the results depend on the processing

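No paired analysis was possible because each genotype and tissue had 1 library. For lung endothelium the 2 genes higher in TNF+ became 0 with no filter on cells. They became 1 with each library clustered by itself, with cells thinned to 1000 UMIs, with each cell weighted equally, with median-of-ratios scaling, with free RNA subtracted, and with general capillary cells against the unnamed TNF+ group. Without the filter Bmpr1a there was at -0.78, and Smad1 was at 0.69. The 5 lower genes became 2 when scaled to the endothelial marker UMIs, 4 with no filter on cells and 6 with free RNA subtracted. Without the filter Smad9 in lung endothelium was at -0.89. With free RNA subtracted, the median of all genes in lung endothelium moved from 0.05 to 1.34, with 11.2% of genes lower and 54.2% higher. For lung mural cells the 1 lower gene became 4 with the stricter filter and 3 with each cell weighted equally. The stricter filter also changed which cells took the mural name, with 335 TNF+ cells against 93. The genes higher in lung mural cells became 2 with free RNA subtracted, and Smad9 there was at 0.12 with no filter. For synovial endothelium 1 gene was lower with no filter and 1 with free RNA subtracted. For synovial mural cells 2 were lower with free RNA subtracted. Over all synovial cells, thinning left 1 lower and 0 higher, equal weights left 0 higher, and leaving out macrophages and monocytes left 0 lower and 2 higher. Over all lung cells Bmpr2 was at 0.14 with endothelium left out. The cause was not tested. The settings of cells of at least 1000 UMIs without thinning, marker scaling, the unnamed group and left-out lineages were chosen after seeing the data. Lung mural cells gave no value with separate clustering or at 1000 UMIs or more, for want of TNF+ cells. The depth limits Smad9, and Bmpr1a in endothelium, most.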
